A study of Mus musculus with 9 samples.

Results

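RNA-Seq data of murine *Hoxa9* and *Meis1* (H9M) leukemia were examined for 8 genes, *Clec12a*, *Cd300a*, *Cd300lf*, *Pirb*, *Cd33*, *Siglece*, *Sirpa* and *Cd47*, which encode inhibitory surface receptors of myeloid cells and, with *Cd47*, the ligand of one of them. The genes were chosen by name, with their values in these libraries known, and all 8 were found among the 55401 genes of each table. Because of this choice, their values and fold changes are given as a description and without p-values. Only RNA was measured, and no surface protein was stained for any of the 8.

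All cells descended from lineage-negative bone marrow cells of C57BL/6-Ly5.1 mice that were transduced with a gammaretroviral vector for *Meis1* and *Hoxa9* and later with a lentiviral color-coding vector. Each color code marked 1 clone, and the pooled clones were transplanted with helper bone marrow into lethally irradiated C57Bl6/J mice. Mouse #15, sacrificed early after transplantation, gave all pre-malignant libraries, 1 each of 33BC-D, 38BC-D and of 43BC-D. The de novo expanded group consisted of 38BC-D (mouse #13), 43BC-D (mouse #14) and 33BC-D (mouse #17), taken once these mice had reached leukemia. The stably expanded group was 1 clone, 34BC-D, from mice #13, #14 and #17. Splenocytes were thawed and sorted by color code as cKit+CD11b dim cells, and less than a nanogram of RNA was used per library. There were 3 libraries per group. All pre-malignant libraries come from 1 mouse and all stably expanded libraries from 1 clone, so that group cannot be told apart from mouse #15 in one case and from the clone in the other, and spread in these groups does not hold variation between mice or between clones, respectively. The tables name the group of each library but not its clone or mouse. Libraries were therefore numbered within a group by the order of their library numbers. Whether a shared number marks a shared mouse or clone was not established, and none is read from it.

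Myeloid cells are held in check by surface receptors that carry an immunoreceptor tyrosine-based inhibitory motif (ITIM) in their cytoplasmic tail. Once its tyrosine is phosphorylated by a Src-family kinase, the motif recruits the phosphatases SHP-1 (*Ptpn6*), SHP-2 (*Ptpn11*) or SHIP-1 (*Inpp5d*), which dampen signals from activating receptors that pair with ITAM-bearing adaptors such as DAP12 (*Tyrobp*). Several of these receptors are displayed on leukemic blasts and are used as antigens in acute myeloid leukemia, and the binding of CD47 to SIRPα is known as a signal that keeps macrophages from engulfing a cell.

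Library depth was 10379739 to 15551196 reads on genes. *Kit*, the gene for the sorted marker cKit, lay between 1937 and 3979 normalized counts and *Ptprc*, the gene for CD45, between 4238 and 5216. The 10 T and NK cell markers summed to at most 44.7 normalized counts in any library. The 8 B cell markers summed to between 233 and 382 normalized counts in the pre-malignant libraries and to between 111 and 289 in the others, and the 8 erythroid markers to between 257 and 487 and between 31.6 and 325, respectively. Of the B cell markers, *Cd79b* alone held 130 to 248 normalized counts in the stably expanded libraries. De novo expanded library 3 stood apart. In it, 17.0% of 13960 genes lay at least 2-fold from the mean of the other 2 libraries of its group, against 5.95% to 11.7% in the other libraries. Selected comparisons and correlations that hold this library are therefore also given without it, though not for every gene.

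The 8 genes lie on 5 chromosomes (GRCm38.p6). *Clec12a*, a C-type lectin with an ITIM that recognizes uric acid crystals, lies at chr6:129342691-129365303 on the plus strand. *Cd300a* and *Cd300lf*, both ITIM-bearing receptors for phospholipids of dying cells, belong to the CD300 cluster at chr11:114890041-114904654 (plus strand) and chr11:115116214-115133992 (minus strand). *Pirb*, a receptor for MHC class I molecules, lies at chr7:3711409-3720391 on the minus strand. *Cd33* and *Siglece*, which bind sialic acids on glycans, are neighbors at chr7:43524216-43544428 and chr7:43651070-43660161, both on the minus strand. *Sirpa*, the CD47 receptor, lies at chr2:129592835-129632228 and *Cd47* at chr16:49800533-49915010, both on the plus strand. *Pirb* and its activating *Pira* relatives, *Sirpa* and the *Sirpb1* genes, and the CD300 genes have similar sequences, so the division of short reads among these relatives is uncertain.

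The 250 bases before the annotated RefSeq start (GRCm38.p6) were read for the 7 genes with a promoter entry, which leaves out *Sirpa*. The motifs were picked after the sequences had been seen, and were searched on both strands. The core motif of the myeloid factor PU.1, GAGGAAG or CTTCCTC on the other strand, was found before 6 of these 7 genes, all but *Cd47*, and in 10.6% of 32851 RefSeq promoters. The palindrome TTGCGCAA, a C/EBP motif, was found before *Clec12a* alone and in 0.164% of the promoters. The RUNX motif TGTGGT stood before *Clec12a* and *Cd33* (14.0% of promoters) and the AP-1 motif TGACTCA before none of the 7 (4.46%). The windows of the PU.1 motif are shown because most of these upstream regions share it, and that of the C/EBP motif because it is rare among promoters, with the motif in capitals, 5′ to 3′ on the strand of the gene. The RefSeq starts lie 7553 bases (*Clec12a*), 11257 bases (*Cd33*) and, for the 2 starts of *Cd47*, 55121 and 55128 bases inside the gene as the tables' annotation gives it, and the *Clec12a* windows fall within an annotated exon.
Clec12a, chr6:129350173-129350199, plus strand, PU.1 motif: gaagaaatatGAGGAAGaaaagtgttc
Clec12a, chr6:129350094-129350121, plus strand, C/EBP motif: taggagcaaaTTGCGCAActcgtatgaa
Cd33, chr7:43533381-43533407, minus strand: agtggaatggGAGGAAGccacaaagaa
Pirb, chr7:3720486-3720512, minus strand: tcacaccattGAGGAAGtcagagcatg
Cd300a, chr11:114889991-114890017, plus strand: gctagcaggtCTTCCTCtccacaaggc
Cd300lf, chr11:115134020-115134046, minus strand: accctacctcCTTCCTCttttggtgct
Siglece, chr7:43660233-43660259, minus strand: gtctgaagctCTTCCTCctgaggcagc
Siglece, chr7:43660182-43660208, minus strand: tccgctggggCTTCCTCagggccttgc

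*Cd300lf* and *Pirb* are shown with their whole 250 bases, because the levels of these 2 genes ran in opposite directions across the libraries. The last base of each sequence is the one before the RefSeq start.
Cd300lf, chr11:115133993-115134242, minus strand: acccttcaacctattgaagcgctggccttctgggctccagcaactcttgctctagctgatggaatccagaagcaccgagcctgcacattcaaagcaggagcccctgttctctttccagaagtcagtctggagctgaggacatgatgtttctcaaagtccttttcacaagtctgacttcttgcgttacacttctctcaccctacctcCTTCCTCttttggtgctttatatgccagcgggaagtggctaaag
Pirb, chr7:3720383-3720632, minus strand: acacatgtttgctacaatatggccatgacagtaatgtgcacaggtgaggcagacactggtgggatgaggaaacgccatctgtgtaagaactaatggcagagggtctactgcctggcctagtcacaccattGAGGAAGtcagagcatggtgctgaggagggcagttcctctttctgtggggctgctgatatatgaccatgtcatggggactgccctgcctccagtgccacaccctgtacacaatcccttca
The PU.1 motif begins 44 bases before the start of *Cd300lf*, on the opposite strand, and 120 bases before that of *Pirb*. No factor binding was measured, and these matches describe letters only.

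Per length, *Cd47* was the most abundant of the 8 genes in every group. Levels between genes were compared as reads per kilobase of exon length, scaled to the reads on genes of the library (RPKM). In the pre-malignant group, *Cd47* reached an RPKM of 74.5 ± 6.51 (SD, n = 3 in each group here and below), followed by *Sirpa* at 34.9 ± 2.78 and *Clec12a* at 33.9 ± 2.44, whose ranges overlapped. *Cd300a* (5.16 ± 0.49), *Cd33* (4.59 ± 1.11) and *Pirb* (4.25 ± 0.58) followed, with *Cd33* within the spread of both others and *Cd300a* above *Pirb* by more than either SD, and *Siglece* (1.13 ± 0.12) and *Cd300lf* (0.59 ± 0.11) were lowest. In the stably expanded group the order of the upper genes was *Cd47* (88.4 ± 11.4), *Clec12a* (67.1 ± 2.64), *Sirpa* (36.7 ± 5.36) and *Cd33* (13.6 ± 3.16). *Clec12a* thus stood clear of *Sirpa*, and *Cd33* clear of *Cd300a* (5.79 ± 0.89), by more than their SD. *Pirb* (3.38 ± 0.91), *Cd300lf* (2.69 ± 0.86) and *Siglece* (1.80 ± 0.94) came last, each within the SD of its neighbor in this order, although *Pirb* and *Siglece* were further apart than either SD. In every library *Cd47*, *Clec12a* and *Sirpa* made up most of the summed RPKM of the 8 genes, with 38.6% to 50.5%, 20.1% to 33.7% and 15.6% to 22.4%, respectively.

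Values of single libraries and group means of the 8 genes are normalized counts on one scale for the 9 libraries, whereas fold changes, and the group means of other genes, are on the scale of the deposited table of the pair. In bulk samples, fewer cells of a type and less RNA per cell cannot be told apart. *Clec12a* was the lectin receptor of the set and one of its most abundant members. The pre-malignant libraries held 2414, 2538 and 2752 normalized counts of *Clec12a*, those of the de novo expanded clones 2884, 3462 and 5375, and the stably expanded libraries 5373, 4864 and 5040.4. All endpoint libraries exceeded all pre-malignant libraries, and de novo expanded library 3 alone of its group reached the level of clone 34BC-D.

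The 2 CD300 receptors differed in how much they varied. *Cd300lf* was low in the pre-malignant libraries, at 46.2, 45.6 and 32.3 normalized counts, and lower still in de novo expanded libraries 1 and 2, at 11.4 and 20.0, but reached 146 in library 3. In the stably expanded libraries it stood at 238, 118 and 218. These values rest on 10 to 263 reads, and the highest library exceeded the lowest 20.9-fold, the widest range of the 8 genes. By contrast, *Cd300a* held 345, 298 and 362 normalized counts before malignancy, 231, 301 and 339 after de novo expansion and 405, 409 and 316 in clone 34BC-D. All 3 groups of *Cd300a* overlapped, and its range over the 9 libraries was 1.77-fold.

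*Pirb* ran the other way. It held 298, 222 and 261 normalized counts in the pre-malignant libraries and 158, 261 and 202 in clone 34BC-D. In the de novo expanded group, libraries 1 and 2 were the highest of all 9, at 508 and 471, and library 3 was the lowest, at 119. The de novo expanded group therefore spanned the whole range of *Pirb*, and its mean of 366 ± 215 describes none of its libraries. The opposite order in *Cd300lf* and *Pirb* gave a Pearson correlation of -0.85 over the 9 libraries on the log2 scale, or -0.88 without de novo expanded library 3, a description that rests on points sharing groups, clones and mice.

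Of the sialic acid receptors, *Cd33* differed among the groups, whereas *Siglece* was near the lower limit of what these libraries can resolve. *Cd33*, whose mouse form differs from human CD33 in its cytoplasmic tail, held 602, 503 and 361 normalized counts in the pre-malignant libraries. It stood at 391, 718 and 1458 in the de novo expanded group and at 1858, 1278 and 1232 in clone 34BC-D. The pre-malignant and stably expanded groups did not overlap, and de novo expanded library 3 again lay within the range of clone 34BC-D. *Siglece* held 29.4, 25.1 and 31.4 normalized counts in the pre-malignant group, 20.5, 16.6 and 30.7 after de novo expansion and 73.3, 26.6 and 37.6 in clone 34BC-D. Its groups overlapped, stably expanded library 1 was the highest of all 9, and the counts behind these values were 18 to 81 reads.

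The receptor and ligand of the CD47 axis were the least variable genes of the set. *Sirpa* held 2259.9, 2225 and 2558 normalized counts before malignancy, 2286, 2287 and 2314 after de novo expansion and 2769, 2559.9 and 2096 in clone 34BC-D, a range of 1.32-fold. *Cd47* held 6487, 5791 and 6942 normalized counts in the pre-malignant group, 6717, 8750.4 and 6989.8 in the de novo expanded group and 7858, 8312 and 6668 in clone 34BC-D, a range of 1.51-fold. The groups overlapped for both genes. Within a library the RPKM of *Cd47* was 2.04 to 2.99 times that of *Sirpa*, with the highest ratio in de novo expanded library 2.

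**Figure D1:**
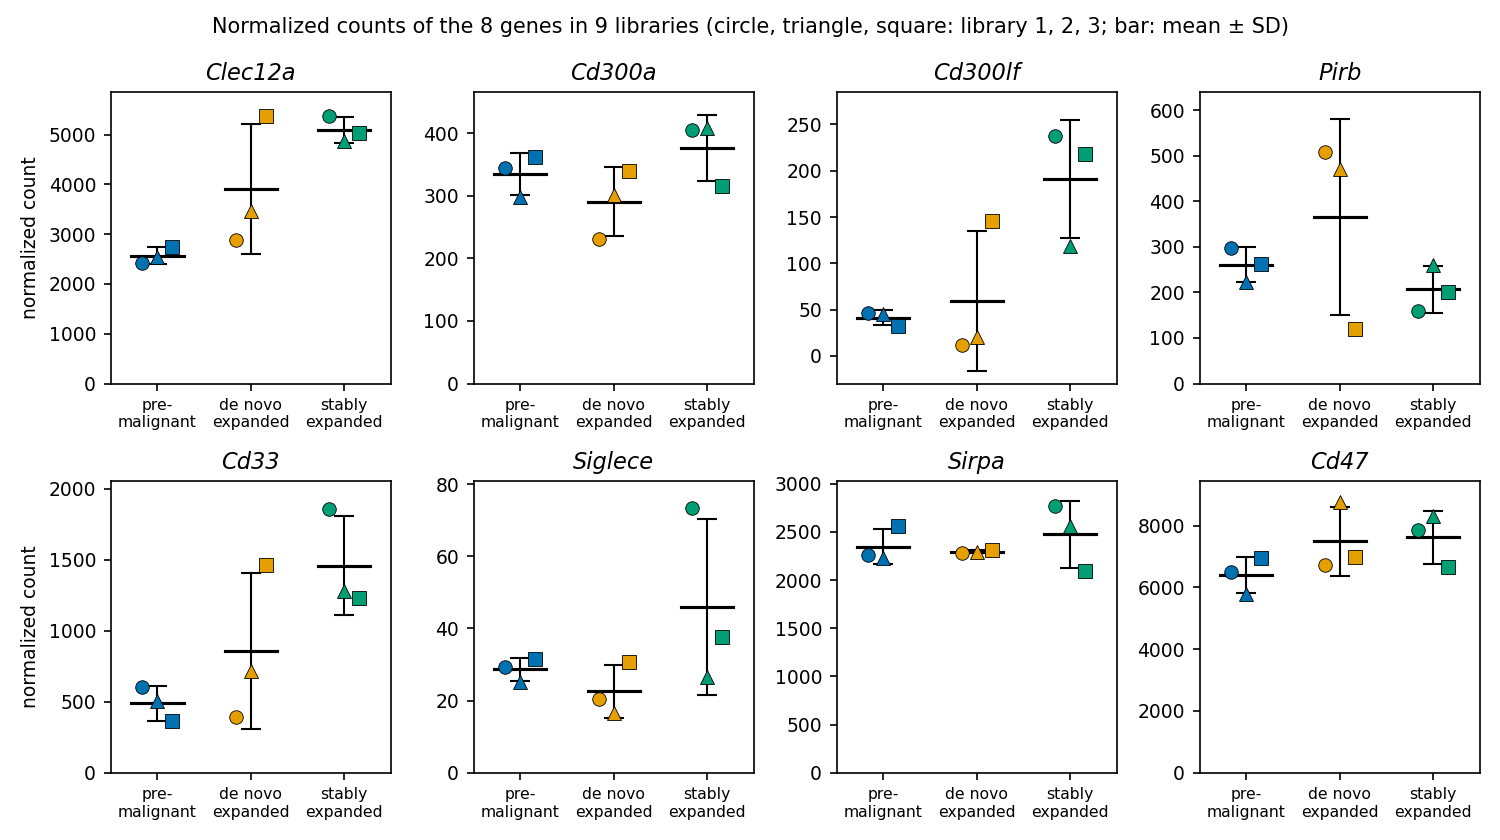
Normalized counts (linear y axis, one panel per gene) of the 8 genes in the pre-malignant, de novo expanded and stably expanded libraries, where symbols mark libraries 1 to 3 and bars the mean ± SD of 3 libraries. De novo expanded library 3 (square) lies with the stably expanded libraries for *Clec12a*, *Cd300lf* and *Cd33* and at the bottom for *Pirb* (119), while *Sirpa* varied by only 1.32-fold.

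The comparison of the de novo expanded with the pre-malignant group asks what distinguishes an expanded clone from the same set of clones before expansion. *Clec12a* was the only one of the 8 genes whose groups did not overlap, with 3907 ± 1304 normalized counts against 2568 ± 171, a log2 fold change of 0.58 (standard error 0.22). Over all 14195 genes tested, 19.1% did not overlap in this comparison, and nothing is read from the count of 1 in 8. None of the 8 genes met the limits of an adjusted p under 0.05 and a 2-fold change (limma), nor did any other gene (0%), although 1597 genes had an unadjusted p under 0.05. On the same read counts, edgeR called 0 genes and DESeq2 called 42, none of them among the 8. Log2 fold changes were 0.65 (standard error 0.45) for *Cd33*, 0.26 (0.52) for *Pirb* and 0.24 (0.13) for *Cd47*. They were -0.01 (0.09) for *Sirpa*, -0.20 (0.19) for *Cd300a*, -0.29 (0.85) for *Cd300lf* and -0.35 (0.37) for *Siglece*, and all of these groups overlapped. The sign for *Cd300lf* depended on the scale, since its mean was higher in the de novo expanded group (59.2 ± 75.4 against 41.4 ± 7.85 normalized counts), and edgeR (0.52) and DESeq2 (0.55) gave a positive log2 fold change. The median of the 8 genes was 0.11 on the log2 scale, against 0.01 for all genes tested.

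The size of these differences depended on de novo expanded library 3. In normalized counts it exceeded the mean of libraries 1 and 2 of its group by 9.29-fold for *Cd300lf*, 2.63-fold for *Cd33*, 1.69-fold for *Clec12a* and 1.65-fold for *Siglece*, while the ratio was 1.01 for *Sirpa*, 0.90 for *Cd47* and 0.24 for *Pirb*. Without this library, the log2 fold change of *Cd300lf* over the pre-malignant group moved from -0.29 to -1.36 and that of *Pirb* from 0.26 to 0.93, that of *Cd33* from 0.65 to 0.16 and that of *Clec12a* from 0.58 to 0.32, and 214 genes were called, none of the 8 among them. *Siglece* moved from -0.35 to -0.59, *Cd300a* from -0.20 to -0.32, *Cd47* from 0.24 to 0.28 and *Sirpa* from -0.01 to -0.02. Without library 3, none of the 8 genes changed sign in this comparison. Leaving out library 1 in its place turned the sign of both *Cd300lf*, to 0.43, and *Pirb*, to -0.10, and leaving out library 2 brought both close to 0 on the other side, at 0.05 and -0.05. Library 3 also stood apart in promyelocyte granule genes. Its 10 progenitor and promyelocyte markers summed to 307406 normalized counts, against 59330 and 80315 in the other de novo expanded libraries, and *Mpo*, the myeloperoxidase gene, made up 218137 of them. Within this list, *Cd34* (644 against 1482 and 2219) and *Flt3* (1013 against 3034 and 4006) ran the other way. *Kit* (3779 against 1937 and 3046), *Myb* (20315 against 11593 and 13491) and *Cd27* (420 against 198 and 305) were higher in library 3. The part of these markers in the results on the 8 genes was not tested.

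When clone 34BC-D was compared with the pre-malignant clones, *Cd300lf* and *Cd33* were higher and *Clec12a* stood at the limit. Normalized counts of *Cd300lf* averaged 191 ± 63.9 against 41.4 ± 7.85, a log2 fold change of 2.14 (standard error 0.31), or 4.40-fold. *Cd33* averaged 1456 ± 349 against 489 ± 121, a log2 fold change of 1.58 (0.20), or 2.99-fold. *Clec12a* averaged 5092 ± 259 against 2568 ± 171, a log2 fold change of 0.99 (0.09), or 1.98-fold. No library overlapped in these 3 genes, and *Cd300lf* and *Cd33* met the limits of a call, whereas *Clec12a* met that on the adjusted p but not the 2-fold limit. Of 13968 genes tested, 2.75% were called (168 higher and 216 lower) and 30.7% did not overlap. As the 8 genes were picked with these values known, nothing is read from their 2 calls beside this share.

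The other 5 genes overlapped between these groups. Log2 fold changes were 0.54 (standard error 0.42) for *Siglece*, 0.25 (0.11) for *Cd47*, 0.16 (0.16) for *Cd300a*, 0.07 (0.12) for *Sirpa* and -0.35 (0.21) for *Pirb*. The median over the 8 genes was 0.39, against 0.00 for all genes tested. The *Siglece* difference was carried by stably expanded library 1 and dropped to 0.15 without it. The calls of *Cd300lf* and *Cd33* held when any 1 of the 6 libraries was left out, and with edgeR and DESeq2. In 1 fit of all 9 libraries, whose shared spread includes the de novo expanded group, neither was called and 6 genes were called in all. These repeats reuse the same libraries for genes picked with their values known, and are a description only.

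**Figure D2:**
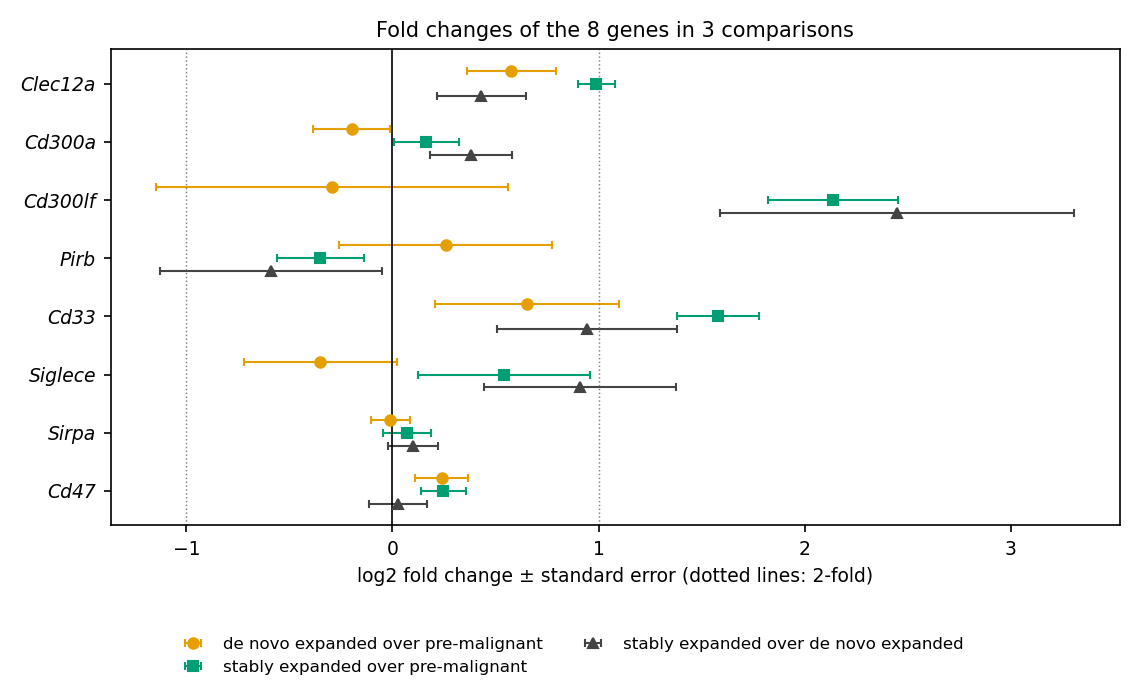
Log2 fold changes (x axis, points, with bars of ± 1 standard error) of the 8 genes (rows) in the 3 comparisons, each of 3 against 3 libraries, with dotted lines at 2-fold. *Cd300lf* (2.14) and *Cd33* (1.58) lie beyond 2-fold for stably expanded over pre-malignant, and *Clec12a* (0.99) lies on the line. Bars that include the de novo expanded group are wider than those without it, except de novo expanded over pre-malignant for *Sirpa* and *Siglece*.

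Markers of other cell types and stages moved with the same comparison. The 14 mature neutrophil markers summed to between 4440 and 5458 normalized counts in the pre-malignant group, to 3921, 4433 and 11006 after de novo expansion, and to 62912, 25757 and 10292 in clone 34BC-D. Of 10 such markers tested, 4 were called higher in the stably expanded clone (limma, Benjamini-Hochberg over all genes), namely *Ltf* (log2 fold change 4.58), *Camp* (3.98), *Ngp* (3.14) and *Cxcr2* (1.64), while *Ly6g* was low throughout, with at most 14.8 normalized counts in any library. The monocyte and macrophage markers summed to between 18544 and 26583 normalized counts in the pre-malignant group and to between 17465 and 22143 in clone 34BC-D, with *Csf1r* (-1.71) and *Cx3cr1* (-1.45) called lower and none of 11 called higher. Of the progenitor and promyelocyte markers, *Ms4a3* was called higher (1.26, adjusted p = 0.0035, limma). The B cell markers summed to 233 to 382 normalized counts before malignancy and to 157 to 289 after stable expansion, with overlapping ranges. Of 7 tested, 3 were called lower, at a median log2 fold change of -2.29. *Cd79b* ran the other way, at 95.6, 137 and 63.7 normalized counts against 203, 130 and 248. It made up most of each stably expanded sum. None of 6 erythroid markers was called, at a median log2 fold change of -1.96. *Itgam*, the gene for the sorted marker CD11b, was also higher in all stably expanded libraries (log2 fold change 0.61, adjusted p = 0.049, limma) but under 2-fold. The part of these markers in the results on the 8 genes was not tested.

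Clone 34BC-D was set against the de novo expanded clones of the same mice to ask how the leukemic clones differed from each other. All 8 genes overlapped between these groups and none was called (limma, edgeR and DESeq2), beside 9.61% of 13758 genes that did not overlap and 0.00727% that were called, which is the single gene *Gpx3*; 664 genes had an unadjusted p under 0.05. The log2 fold change was 2.45 (standard error 0.86) for *Cd300lf*, 0.94 (0.44) for *Cd33*, 0.91 (0.47) for *Siglece*, 0.43 (0.22) for *Clec12a* and 0.38 (0.20) for *Cd300a*. It was 0.10 (0.12) for *Sirpa*, 0.03 (0.14) for *Cd47* and -0.59 (0.54) for *Pirb*. The median of the 8 genes was 0.41 and that of all genes tested -0.00. Without de novo expanded library 3, *Cd300lf* (3.51), *Cd33* (1.43) and *Pirb* (-1.27) were called among 508 genes, and their groups no longer overlapped. *Clec12a* moved from 0.43 to 0.69 and was not called. The share of all genes without overlap was not computed for this smaller fit. As the library was left out after its values had been seen, nothing is read from these calls. The comparisons share libraries, and their fold changes are not independent of each other.

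The surroundings of the 8 receptors were described with 5 lists of related genes, 106 in all, of which 104 were matched by name and 79 or 80 passed the filter on low counts. Between the stably expanded and pre-malignant groups, 15 of 80 (18.8%) were called, 11 higher and 4 lower, beside 2.75% of all genes. The lists were written with earlier results of these data known. Leaving out pre-malignant library 2 or stably expanded library 1 reduced the calls to 8 and 9, and 1 fit of all 9 libraries to 0. No list gene was called in the other 2 comparisons (limma and edgeR), with 10 and 11 at an unadjusted p under 0.05, while DESeq2 called 0 and 1, the kinase gene *Fyn*.

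Among the other inhibitory receptors, 3 of 17 tested genes rose and 2 fell. *Clec4a2*, an ITIM-bearing C-type lectin, rose from 130 ± 11.3 to 409 ± 125 normalized counts (log2 fold change 1.61, adjusted p = 0.0041, limma), *Siglecf*, a sialic acid receptor best known from eosinophils, from 273 ± 63.1 to 831 ± 202 (3.04-fold, adjusted p = 0.0035) and the adhesion receptor gene *Ceacam1* from 532 ± 80.4 to 1479 ± 522 (1.43, adjusted p = 0.0054). *Btla*, a lymphocyte attenuator (-1.21, adjusted p = 0.023), and *Pecam1*, the gene for CD31 (-1.01, adjusted p = 0.0056), fell. Of 7 B cell markers tested in the same comparison, 3 were called lower, *Pax5* (-3.04), *Ebf1* (-2.89) and *Ms4a1* (-2.29). One of the 7, *Cd79b*, was higher without a call, at 130 to 248 normalized counts against 63.7 to 137 in the pre-malignant libraries. The part of these markers in the fall of *Btla* was not tested. The 2 most abundant of the rest, the Fc receptor gene *Fcgr2b* (0.24) and *Vsir*, the gene for VISTA (0.29), did not pass the test. The median of this list was 0.07.

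Activating counterparts of the 8 receptors included 4 of 13 tested genes that rose and 1 that fell, with a list median of 0.41. *Trem3*, which pairs with DAP12, had a log2 fold change of 2.24 (adjusted p = 0.012, limma) and the activating IgG receptor gene *Fcgr4* one of 1.27 (adjusted p = 0.022). The activating CD300 genes *Cd300c2* (2.04, adjusted p = 0.016) and *Cd300ld* (1.74, adjusted p = 0.031) rose along with *Cd300lf*, from 12.8 ± 2.36 and 25.7 ± 12.4 to 57.3 ± 19.7 and 85.1 ± 26.5 normalized counts, whereas *Cd300lb*, the most abundant activating CD300 gene, was at -0.27 and did not pass the test. *Clec7a*, the gene for the β-glucan receptor Dectin-1 and a neighbor of *Clec12a*, fell (-1.35, adjusted p = 0.012). *Fcgr3* met the limit on the adjusted p (0.038) at a log2 fold change of 0.41, under 2-fold.

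Of the signaling genes behind ITIM and ITAM receptors, 2 of 19 tested rose and none fell. One of them was *Fgr*, which encodes a Src-family kinase (log2 fold change 2.23, adjusted p = 0.025, limma). *Cbl* and *Ptpn6*, the gene for SHP-1, held the most normalized counts of this list. *Ptpn6* averaged 5224 ± 211 in the stably expanded group against 4397 ± 355 in the pre-malignant group and did not pass the test (0.25, adjusted p = 0.11, limma). *Cbl*, at 5742 ± 457 against 5088 ± 31.3, did not pass it either (0.17, adjusted p = 0.25). The list median was 0.12.

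Ligands and phagocytosis signals held 2 of 16 tested genes that rose. *Cd24a*, a sialylated surface protein that serves as a Siglec ligand, rose from 2251 ± 376 to 4816 ± 97.0 normalized counts (log2 fold change 1.11, adjusted p = 0.0025, limma) and *Nectin2*, an adhesion ligand, from 80.0 ± 15.3 to 168 ± 43.3 (1.05, adjusted p = 0.035). *H2-D1*, a class I gene and as such a ligand of PIR-B, was at -0.33 (adjusted p = 0.097) and *Calr*, the calreticulin gene, at 0.16 (adjusted p = 0.40). Of 15 tested genes for sialic acid synthesis and transfer, 1 fell, the polysialyltransferase gene *St8sia4* (-1.17, adjusted p = 0.0073). The sialidase gene *Neu1* met the limit on the adjusted p (0.037) but not on the fold (0.65), and the synthase gene *Nans* passed neither (0.31, adjusted p = 0.10). The list medians were -0.06 and 0.09.

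**Figure D3:**
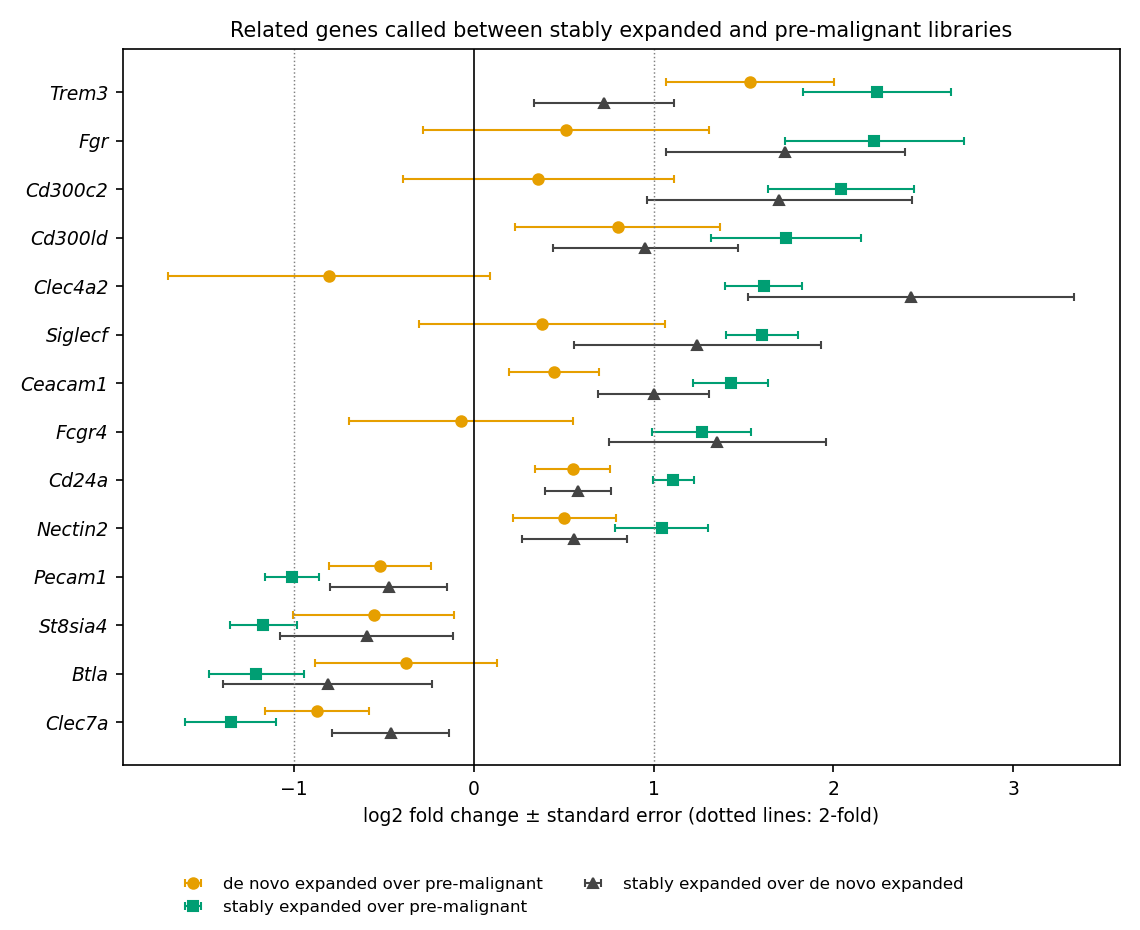
Log2 fold changes (x axis, points, with bars of ± 1 standard error) of 14 of the 15 related genes that were called between the stably expanded and pre-malignant groups, in the 3 comparisons of 3 against 3 libraries, with dotted lines at 2-fold. By their choice all squares lie beyond 2-fold, from -1.35 (*Clec7a*) to 2.24 (*Trem3*), and the bars with the de novo expanded group are wide, as for *Clec4a2*.

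Called genes were also looked for next to the receptors. Neighbors were taken as protein-coding genes (RefSeq) within 200000 bases, a rule set after the values had been seen. Between the stably expanded and pre-malignant groups, 2.75% of all genes tested were called. Except for *Nkg7*, the called neighbors are genes already given above, and nothing is read from their counts. Around *Cd300lf*, 2 of 9 tested neighbors were called higher in the stably expanded group, *Cd300ld* and *Cd300c2*, and around *Cd33* also 2 of 9, *Siglecf* and *Nkg7* (log2 fold change 1.38, adjusted p = 0.034, limma). Around *Clec12a*, 1 of 6 was called, *Clec7a*, and it fell, while *Olr1* was at 0.88 (adjusted p = 0.015), under 2-fold. Of 6 tested neighbors each, *Cd300a* had the same 2 called CD300 genes and *Siglece* had *Cd33*. None of 13 tested neighbors of *Pirb* was called, including its relatives *Pira2* (-0.31, adjusted p = 0.79) and *Lilra6* (0.21, adjusted p = 0.71), nor the single tested neighbor of *Sirpa* and of *Cd47*.

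**Figure D4:**
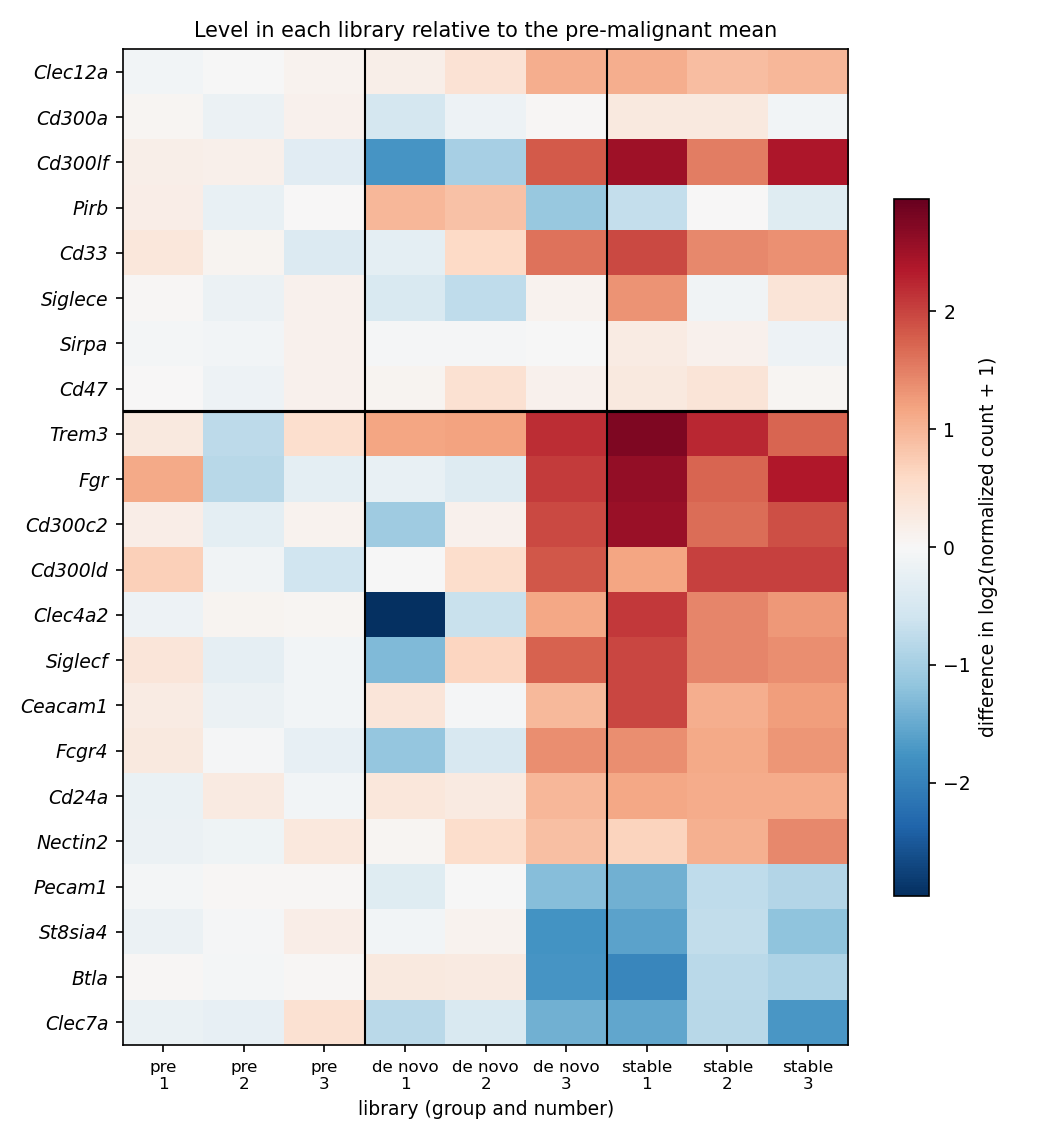
Difference of each library from the pre-malignant mean in log2(normalized count + 1) (color, red higher and blue lower) for the 8 genes (above the line) and 14 of the 15 related genes called between the stably expanded and pre-malignant groups (below). De novo expanded library 3 resembles the stably expanded libraries, with red for *Cd300lf*, *Cd33* and *Clec12a* and blue for *Pirb*, whereas libraries 1 and 2 show blue for *Cd300lf* (11.4 and 20.0 normalized counts).

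For each of the 8 genes, the 2 most similar genes were looked up by Pearson's r of log2(normalized count + 1) over the 9 libraries, among 13959 other genes. With this many genes and 9 libraries that share groups, high coefficients are a description only. *Cd300lf* was most like *Cebpe* (r = 0.99, Spearman's rho = 1.0) and *Nucb1* (0.99 and 0.98). *Cebpe* held 502, 451 and 386 normalized counts in the pre-malignant group, 116, 219 and 1237 after de novo expansion and 1927, 971 and 1495 in clone 34BC-D, the same order of libraries as *Cd300lf*. *Pirb* was most like *Gm37465* (0.98 and 0.95) and *Slc44a2* (0.97 and 1.0), *Cd33* like *Jdp2* (0.99 and 0.93) and *Rmnd5b* (0.98 and 0.93), and *Clec12a* like *Dars* (0.98 and 0.95) and *Apoo* (0.98 and 0.88). The least variable genes had their highest coefficients at 0.96 (*Sirpa* with *Polr2g*) and 0.94 (*Cd47* with *Atxn1l*), *Cd300a* at 0.97 (*Mocs1*) and *Siglece* at 0.95 (*Ints12*). Among the 8 themselves, the highest coefficients were between *Clec12a* and *Cd33* (0.92) and between *Cd300lf* and *Cd33* (0.88). Without de novo expanded library 3, a choice made after seeing the data, these were 0.91 and 0.87, *Cd300lf* with *Cebpe* stayed at 0.99 and the lowest of the 16 coefficients with similar genes was 0.94.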

How the data were processed

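The authors sequenced total RNA libraries (SMARTer Stranded Pico) on a NextSeq 550 and ran nf-core/rnaseq against GRCm38.p6 (GENCODE M25). The submitters' processing notes name Trim Galore 0.6.4, STAR 2.6.1d, featureCounts 1.6.4, bcl2fastq and DESeq2. The strand setting of the counting is not given in the sources used here. The authors deposited 3 tables, 1 per pair of groups, with read counts per gene divided by DESeq2 size factors (normalized counts, a signal) in 6 libraries each and the exon length of each gene. They also hold the authors' means, fold changes, test statistics and p-values, which were not used here.

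Whole reads, to within 0.05 reads, came out for at least 99.98% of nonzero values. Levels over all 9 libraries were these reads divided by median-of-ratios size factors. Library-to-library scales differed from those of the tables by at most 2.0% within a table.

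Each pair of groups was tested on its own table with limma 3.58.1 (R 4.3.3), two-sided, on log2(normalized count + 1) with a mean-variance trend and empirical Bayes moderation. Genes needed a mean of at least 10, p-values were adjusted by Benjamini-Hochberg over all of them, and a call required an adjusted p under 0.05 and a 2-fold change. Fold changes are on this scale and understate those of low genes. The script was tested on simulated data. edgeR 4.0.16 on the recovered reads called 0, 377 and 1 genes (de novo expanded over pre-malignant, stably expanded over pre-malignant, stably over de novo expanded) and DESeq2 1.42.0 called 42, 393 and 29. Tables and figures used Python 3.11.15, pandas 2.3.3, numpy 2.4.6 and matplotlib 3.10.9. A single value tested exactly by permutation in 3 against 3 libraries cannot fall below p = 0.1. Columns were assigned to groups by the library numbers of each comparison.

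The 8 genes, the lists and the tests were chosen with earlier results of these data known. Named genes are the 8, the called genes of each list and its 2 most abundant others, sort and marker genes, and the 2 most similar genes of each of the 8. A sort and design gene and a called list gene that this rule names are not reported here. Promoter sequences are from RefSeq (GRCm38.p6). Alternatives were other pseudocounts, filters, scaling, tools, 1 fit of all libraries, no fold limit and leaving out each library.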

Additional observations from a re-analysis of the deposited data

How the results depend on the processing

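No paired analysis was possible because the columns carry no clone or mouse, so that neither the clones nor the mice shared between groups can be matched. The log2 fold changes of the 8 genes moved by less than 1 SD, pooled within groups, in all 357 alternatives. For many of these the outcome was fixed, so nothing is read from this count. Leaving out 1 of 3 libraries cannot move a fold change by this SD, and filters and fold limits leave it unchanged. *Cd300lf*, *Pirb*, *Sirpa* and *Cd47* changed sign under single alternatives, such as *Cd300lf* in de novo expanded over pre-malignant, from -0.29 to as much as 0.55. Between de novo expanded and pre-malignant groups, the main count of 0 called genes became 5 with no filter on low values, 42 with DESeq2, 5 in 1 fit of all 9 libraries, and 0 to 214 when 1 library was left out, the highest without de novo expanded library 3. List genes called went from 0 to between 0 and 4 (*Angptl2*, *Fyn*, *Siglecg* and *St3gal5*, again without library 3). Between stably expanded and pre-malignant groups, the 384 called genes became 1110 with no fold limit, 6 in 1 fit of all 9 libraries and 206 to 452 when 1 library was left out. They fell by over 1.5 times without any 1 of the pre-malignant libraries (240 without library 1, 206 without 2, 219 without 3) or stably expanded library 1 (208). List genes called there were 0 in 1 fit of all 9 libraries and 8 to 14 when 1 library was left out, against 15. Of the 8 genes, the 2 calls became 0 in 1 fit of all 9 libraries, and 3 with no fold limit or without pre-malignant library 3 or stably expanded library 2, which added *Clec12a*. Between stably and de novo expanded groups, the single called gene became 2 with no filter, 29 with DESeq2, 2 in 1 fit of all 9 libraries, and 0 to 508 when 1 library was left out, the highest without de novo expanded library 3 and 0 if a stably expanded library was left out. List genes called became 1 with DESeq2 and 0 to 18, and calls among the 8 became 0 to 3, both highest without de novo expanded library 3. The cause of these changes was not tested. *Siglece* was not tested at a mean of at least 50. The 10 to 49 reads of *Cd300lf* in its 5 lowest libraries and the 18 to 81 reads of *Siglece* limit their precision.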
